A study of Mus musculus with 30 samples.

Results

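The 10 genes described here encode the 3 chains of fibrinogen (Fga, Fgb, Fgg), the clotting factors prothrombin, factor V, factor IX and factor X (F2, F5, F9, F10), plasminogen (Plg), and the anticoagulants protein C (Proc) and antithrombin (Serpinc1). They are a list of gene symbols drawn up with earlier results of these data known, and no threshold on a measured value was applied. All 10 were present in every table, among 14259 genes at postnatal days (PND) 1 and 21 and 13091 genes at PND42.

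Hepatocytes make almost all of these proteins and secrete them into plasma. Thrombin, released from prothrombin by a complex of active factor X and factor V, cuts fibrinogen into fibrin, which forms the mesh of a clot, and plasmin, released from plasminogen, dissolves it. Antithrombin inhibits thrombin and factor X, and activated protein C breaks down factor V. F2, F9, F10 and Proc encode proteins that need carboxylation by the vitamin K-dependent enzyme Ggcx, and the fibrinogen genes belong to the acute phase response that interleukin-6 drives in liver.

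The data were RNA-seq of whole liver from CD-1 mice, an outbred stock, after gestational exposure to cadmium chloride (500 ppb CdCl2) or none. Females were sampled at PND1 (4 control, 4 exposed) and PND21 (3 control, 3 exposed), and both sexes at PND42 (4 control and 4 exposed of each). The labels name no litter, dam or pool, so the p-values measure only the spread between these libraries. Animal tags of different ages and sexes share leading numbers within the controls and within the exposed; whether these mark litters was not tested, and the tests treat the animals as independent. Values are normalised read counts, that is, reads divided by each library's size factor, and the differences are log2 fold changes of normalised count + 1. They were tested with limma over every gene in a table and adjusted by the Benjamini-Hochberg method, and "fell" or "rose" is used only for an adjusted p below 0.05. The PND42 libraries were scaled apart from the younger ones, so their levels are not set against PND1 or PND21. At PND42 the columns of 1 control female and 3 control males match their group's labels but no single sample, and they are called unnumbered (a, b and c in males); the column of the unnumbered female bears the animal tag that the labels give to a PND21 control. Without her library the same count of 8 genes passed in PND42 females as with it.

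Libraries held 22.0 M to 40.1 M assigned reads, so counting error was small beside the spread between animals for all 10 genes. All 9 hepatocyte markers in the tables were detected in every group (the tenth, Tf, was not in them). Exposed PND42 females stood apart from their controls in 2 measures of the RNA itself. The mean log2 level of the nuclear RNAs Malat1 and Neat1 was 13.0 to 14.5 in their controls and 15.5 to 15.9 in the exposed, and mitochondrially encoded transcripts took 5.25% to 12.8% of control reads and 22.2% to 35.5% of exposed reads. Neither measure overlapped between those groups, and both overlapped between control and exposed in the other 3 age and sex groups.

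Fgg, Fga and Fgb lie together on mouse chromosome 3 (GRCm38, 83007724 to 83049863), within 42.1 kb, with gaps of 11.0 kb between Fgg and Fga and 6.5 kb between Fga and Fgb. Fgb is read from the strand opposite to the other two.

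The 250 bases before the start of Fgb, Fgg and F9 are shown. All 3 fell in exposed PND42 females, as did Fga, whose window was searched in the same way and is not printed. They are RefSeq starts on GRCm38 (chr3:83049864-83050113 on the minus strand for Fgb, chr3:83007474-83007723 on the plus strand for Fgg, chrX:59999214-59999463 on the plus strand for F9), and capitals mark matches to the letters searched.
Fgb: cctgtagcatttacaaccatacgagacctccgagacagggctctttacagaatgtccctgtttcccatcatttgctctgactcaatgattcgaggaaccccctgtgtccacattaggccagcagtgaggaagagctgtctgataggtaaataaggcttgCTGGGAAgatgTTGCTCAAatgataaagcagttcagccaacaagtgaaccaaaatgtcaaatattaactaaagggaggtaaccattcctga
Fgg: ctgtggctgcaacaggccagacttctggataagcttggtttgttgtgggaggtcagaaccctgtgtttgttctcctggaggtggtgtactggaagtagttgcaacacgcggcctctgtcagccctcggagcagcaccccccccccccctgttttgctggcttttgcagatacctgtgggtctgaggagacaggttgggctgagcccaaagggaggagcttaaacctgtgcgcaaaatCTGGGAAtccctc
F9: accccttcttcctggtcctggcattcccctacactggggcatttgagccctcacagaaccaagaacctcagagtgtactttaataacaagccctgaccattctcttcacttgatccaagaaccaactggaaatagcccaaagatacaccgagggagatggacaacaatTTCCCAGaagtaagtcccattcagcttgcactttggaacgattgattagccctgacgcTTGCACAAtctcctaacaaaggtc
The letters of 2 motifs were searched on both strands. CTGGGAA, the core of the interleukin-6 element, occurred in the 3 windows shown, which were picked by no fixed rule and with results known. It did not occur in that of Fga or of the other 4 matched genes. In exposed PND42 females Fga fell by more (log2 -1.89) than Fgb (-1.79) or F9 (-1.47). Any link between these letters and the falls was not tested. CTGGGAA lay at 91 bases before the start in Fgb, at 13 in Fgg, and at 82 on the opposite strand in F9. TTNNGCAA, which resembles a C/EBP site, occurred in Fgb at 80 and F9 at 24, both on the opposite strand, where it did not overlap CTGGGAA, and in Fga at 135, but not in Fgg or the other 4. Of 32851 windows of the same length in RefSeq, 9.1% held CTGGGAA and 9.56% TTNNGCAA, so neither is rare. Such a match is a description of letters and not a binding site. RefSeq windows were matched for 8 of the 10 genes, the others being Plg and Proc.

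The remaining genes are scattered over the genome: F2 on chromosome 2 (91625320 to 91636414), F5 on chromosome 1 (164151838 to 164220277), Serpinc1 also on chromosome 1 (160978585 to 161005863), F9 on chromosome X (59999464 to 60030759), F10 on chromosome 8 (13037308 to 13056676), Plg on chromosome 17 (12378608 to 12419385) and Proc on chromosome 18 (32123126 to 32139570). All 10 are annotated as protein coding. F5 spans 68.4 kb, the longest of them, and Fgg 7.3 kb, the shortest. Parts of 4 overlap a gene on the opposite strand that the tables also count: Fgg shares 765 bases with Gm30097, F5 380 with Gm16548, Plg 426 with Slc22a3 and Serpinc1 2942 with Zbtb37. No label or note says whether counting used strand, so reads from those stretches are uncertain.

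In exposed PND42 females the transcripts of all 3 fibrinogen chains fell. Fgb was at 132475, 134603, 132740 and 106539 normalised counts in the controls and at 43224, 27584, 25619 and 58455 in the exposed. Every exposed female lay below every control. The mean was 126589 ± 13400 against 38720 ± 15334 (SD, n = 4 each), a log2 fold change of -1.79 ± 0.26 (SE, limma adjusted p = 8.65e-05). Fgg, which encodes the gamma chain, was at 79848, 105102, 90213 and 79481 in controls and at 20907, 13489, 11658 and 33890 in the exposed, again with no overlap. It had the largest fall of the 10 genes, -2.27 ± 0.33 (limma adjusted p = 8.62e-05). Fga, which encodes the alpha chain, was more variable, at 61782, 123716, 86688 and 65089 in controls and 30972, 15678, 11230 and 41783 in the exposed. Its groups did not overlap either, and it fell by 1.89 ± 0.41 on the log2 scale (limma adjusted p = 0.00168). Exposed replicates 2 and 3 were the lowest for each chain and replicate 4 the highest.

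The summed count of the 3 chains lay between 251109 and 363421 in control PND42 females and between 48508 and 134128 in the exposed. The log2 difference was -1.95, with a two-sided exact permutation p of 0.0286, as low as 4 against 4 can give, and 0.128 after adjustment over the 85 sums, shares and ratios compared in this way. Together the 10 genes took 1.71% to 2.21% of reads in control females and 0.647% to 1.01% in exposed females.

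Among the clotting factors, F9, F2 and F10 fell in exposed PND42 females. F9, the factor whose deficiency is haemophilia B, was at 6674, 8652, 6091 and 7613 in controls and at 2956, 2450, 2356 and 2678 in the exposed. The exposed values were close together and well under the lowest control, and F9 had the lowest p of the 10 genes, with a log2 fold change of -1.47 ± 0.19 (limma adjusted p = 4.2e-05). F2 was at 50316, 54450, 53168 and 44189 in controls and at 22099, 21354, 21065 and 24442 in the exposed. These groups were also far apart, and F2 fell by 1.18 ± 0.25 on the log2 scale (limma adjusted p = 0.00122).

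F10 was at 17750, 18162, 19565 and 12634 in controls and at 12052, 10309, 9520 and 10127 in the exposed. The lowest control was only just above the highest exposed female, and the fall of 0.68 ± 0.23 (log2, limma adjusted p = 0.0226) was the smallest of those past the threshold. It missed the threshold in 5 of 16 fits that left out a library, with adjusted p from 0.0501 to 0.0627, namely without control females 2, 3 or 4 or exposed females 2 or 3. F5, the cofactor of active factor X, was at 11896, 15966, 13826 and 11884 in controls and 11174, 8651, 11050 and 10925 in the exposed. Its groups did not overlap, but the log2 difference of -0.36 ± 0.21 did not pass the test (limma adjusted p = 0.186).

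Plasminogen fell about as much as prothrombin. Plg was at 65285, 68861, 60213 and 55061 in control PND42 females and at 31161, 21971, 22466 and 29700 in the exposed, a log2 fold change of -1.26 ± 0.23 (limma adjusted p = 0.000465) with no overlap.

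The pair of anticoagulants differed in their values. Serpinc1 was at 76808, 78011, 73807 and 61548 in controls and at 35781, 32303, 29321 and 33996 in the exposed. The groups did not overlap, and Serpinc1 fell by 1.14 ± 0.23 on the log2 scale (limma adjusted p = 0.000982). Proc was at 22069, 16201, 23254 and 16452 in controls and at 20680, 19269, 20495 and 19789 in the exposed. The exposed values lay inside the range of the controls, with a log2 difference of 0.06 ± 0.20 (limma adjusted p = 0.837). Among the 4 vitamin K-dependent members, F2, F9 and F10 thus passed the test and Proc did not; the difference between genes was not tested.

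In all, 8 of the 10 genes fell in exposed PND42 females and none rose, where 40.2% of all 13091 genes were called in either direction and 21.4% were called lower. In 9 of the 10 every exposed female lay below every control, which 23.5% of all genes did. The median log2 fold change of the 10 was -1.22, against 0 over all genes. Malat1, Neat1 and the mitochondrial share moved with exposure in the same 8 females. The mean of Malat1 and Neat1 did not overlap between these groups, so a fit with it cannot tell it apart from exposure. With this mean as a covariate, 0 of the 10 genes and 232 genes in all passed the threshold. The log2 values were then -1.50 for Fgb (limma adjusted p = 0.0604), -1.37 for Fgg (0.128), -1.07 for Fga (0.426), -0.76 for F9 (0.0596) and -0.57 for Plg (0.321), with F2, Serpinc1 and F10 between -0.44 and -0.20. The summed level of 9 hepatocyte markers lay between 3323240 and 4911740 in controls and between 1629030 and 2777510 in the exposed; 5 of the 9 fell, among them Alb (-1.08). Of the other 9 summed marker lists, 4 did not overlap either and were lower in the exposed: cholangiocytes (log2 difference -1.52), exocrine pancreas (-1.13, from the 1 marker in the table), stellate cells and matrix (-0.38) and sinusoidal endothelium (-0.10), each with an exact permutation p of 0.0286 (adjusted 0.128). The sums for erythroid cells (-0.44, from 3 of 8 markers), Kupffer cells (-0.49), platelets (0.55, from 3 of 8 markers), B cells (0.58) and mesothelium (from 2 of 4 markers) overlapped. Of the 3 platelet markers 1 rose and 2 had lower means, with a median log2 fold change of -0.46. Fewer hepatocytes and less RNA per hepatocyte cannot be told apart in whole tissue, and the part of these measures in the result was not tested.

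**Figure D1:**
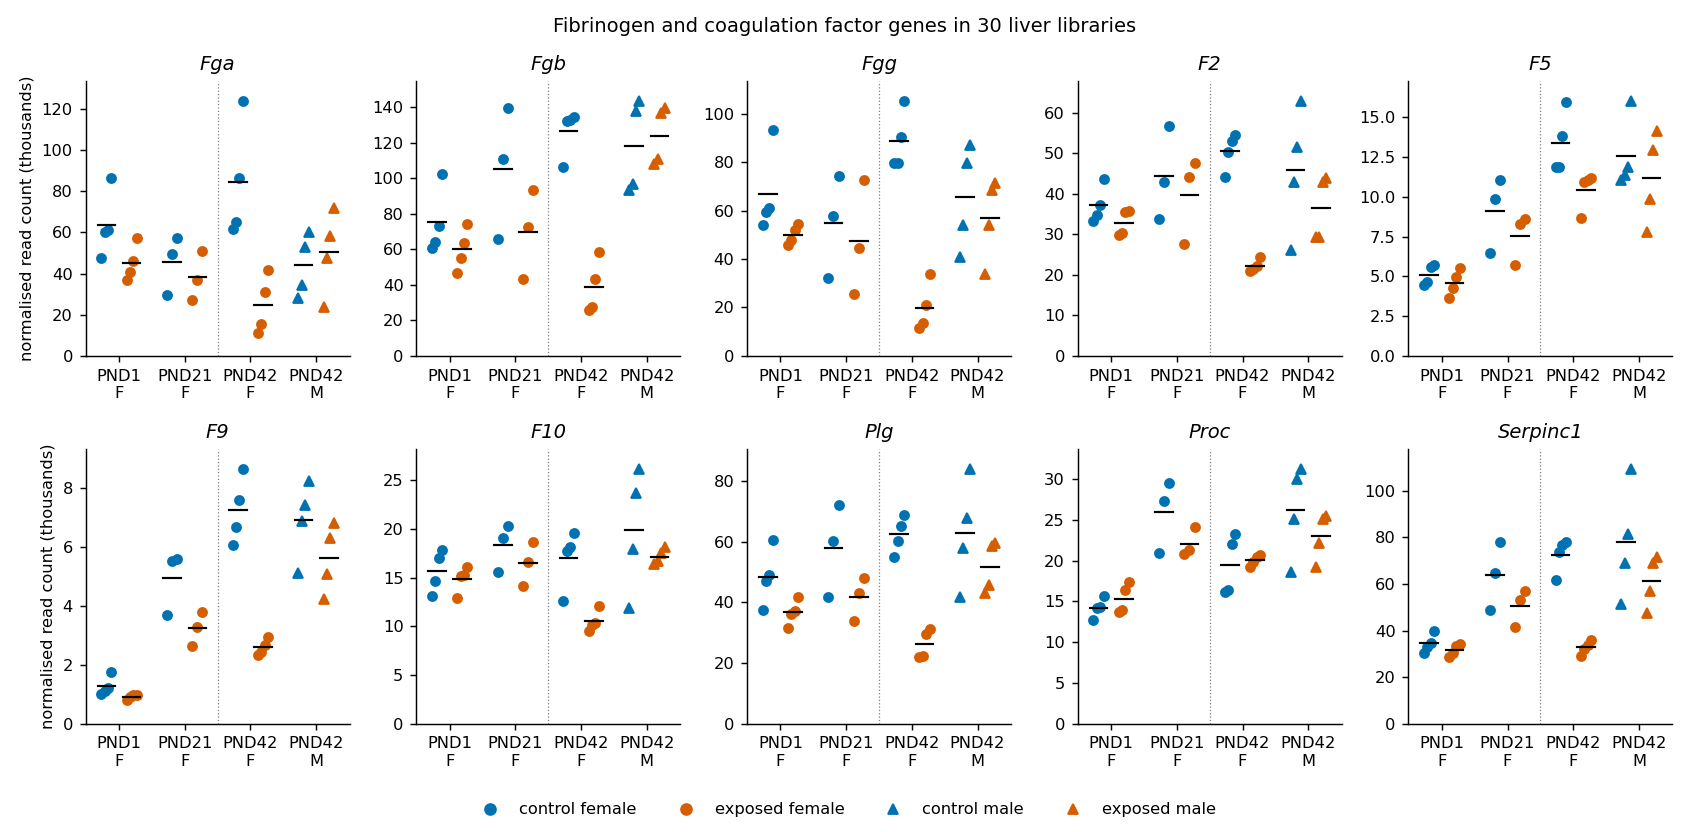
Normalised read counts (in units of 1000) of the 10 genes in each of 30 liver libraries, control in blue and exposed in orange, females as circles and males as triangles, with a bar at each group mean. The dotted line parts the libraries scaled together (PND1, PND21) from those scaled apart (PND42), and exposed PND42 females lie below their controls in every panel but Proc.

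In PND42 males none of the 10 genes passed the threshold. Fgb was at 93647, 97020, 143253 and 137784 in control males and at 139542, 108033, 136822 and 110744 in exposed males, a log2 difference of 0.09 ± 0.26 (limma adjusted p = 0.911). Fga ranged from 28214 to 60332 in controls and from 24009 to 71661 in the exposed (0.15 ± 0.41), and Fgg from 40719 to 86990 and from 33829 to 71543 (-0.19 ± 0.33). Exposed and control males overlapped for each chain.

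The other 7 genes had lower means in exposed males, with log2 differences from -0.15 (F10) to -0.31 (Serpinc1). F9 was at 6905, 5128, 7435 and 8249 in controls and 4246, 5084, 6829 and 6321 in exposed males (-0.31 ± 0.19, limma adjusted p = 0.622). The ranges overlapped for all 10 genes, and 1.73% of all genes had groups apart in either direction. limma called 0.0% of 13091 genes in males, 932 genes at an unadjusted p below 0.05 (7.12%, none of them among the 10), and voom called 0.

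The difference between the sexes in the response was itself tested, as the exposure effect in females minus that in males, over the same 16 libraries as the comparisons within each sex. It passed the threshold for Fgb (-1.87 ± 0.37, limma adjusted p = 0.00851), Fgg (-2.08 ± 0.47, 0.0157), F9 (-1.16 ± 0.27, 0.0183) and Fga (-2.04 ± 0.58, 0.0399), so for 4 of 10 genes, where 7.91% of all genes were called and 4.07% were called in this direction. The Fga result missed the threshold in 10 of 16 fits without a library, with adjusted p from 0.0503 to 0.0878, and without the variance trend and robust step (0.0558). The libraries concerned were control females 3, 4 and the unnumbered one, exposed females 2 and 3, control males 1 and unnumbered a, and exposed males 1, 3 and 4.

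Plg (-1.01 ± 0.33, limma adjusted p = 0.0644), F2 (-0.89 ± 0.35, 0.117) and Serpinc1 (-0.83 ± 0.33, 0.12) had interaction values in the same direction that did not pass. All 3 passed without the unnumbered control male c, the male with the highest F2, Plg and Serpinc1 (adjusted p 0.0405, 0.0218 and 0.0341), which brought the count to 7 of 10. Plg also passed without exposed male 1 (0.0476). F10, F5 and Proc were between -0.53 and 0.23. The ranges of control and exposed males overlapped in Malat1 and Neat1 (13.2 to 15.3 and 14.0 to 15.2) and in mitochondrial share (9.03% to 24.8% and 14.5% to 29.7%).

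**Figure D2:**
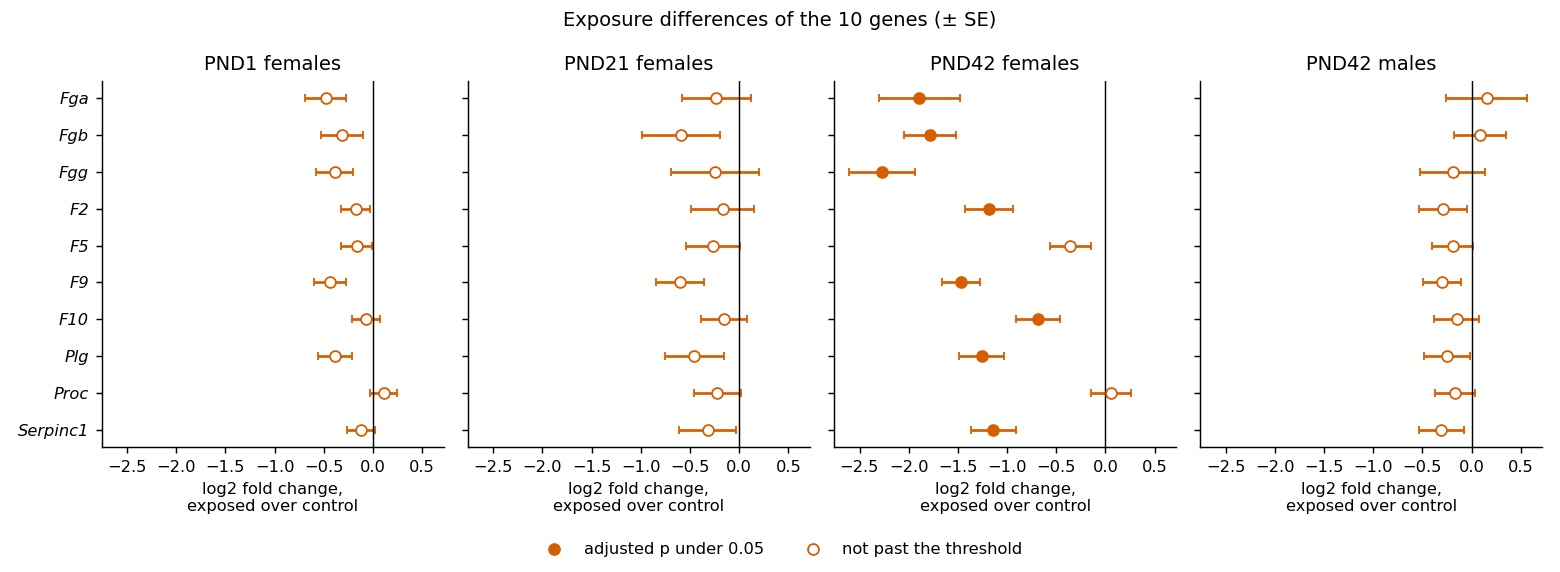
Log2 fold change of exposed over control (± SE, limma) for the 10 genes in each age and sex group, filled where the adjusted p was below 0.05. The 8 filled points are all in PND42 females, between -0.68 for F10 and -2.27 for Fgg.

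Between control males and control females at PND42, none of the 10 genes passed the threshold (6.93% of all genes did). limma gave 3014 genes (23.0%) at an unadjusted p below 0.05, Fga alone among the 10, and voom called 0 of the 10. Fga was at 61782 to 123716 in control females and 28214 to 60332 in control males, and these ranges did not overlap, as was so for 5.64% of all genes with males lower. The log2 difference was -0.95 ± 0.41 (limma adjusted p = 0.173). With read totals as the scale the all-gene median went from -0.02 to -0.38, and Fga passed (-1.32, limma adjusted p = 0.035). Proc was higher in control males on average (26214 ± 5742 against 19494 ± 3691, SD, n = 4 each), with an adjusted p of 0.227 in limma and of 0.0465 without the unnumbered control male a.

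At PND1 the exposed females had lower means for 9 of the 10 genes, but none passed the threshold. Fga was at 60192, 47393, 61265 and 86304 in controls and at 36711, 45970, 57536 and 40922 in the exposed, a log2 difference of -0.48 ± 0.21 (limma adjusted p = 0.332, unadjusted 0.0438). F9 was at 1203, 1026, 1106 and 1747 in controls and at 815, 916, 972 and 980 in the exposed (-0.44 ± 0.16, limma adjusted p = 0.299, unadjusted 0.0222). F9 was the only one of the 10 whose groups did not overlap, and 4.82% of all genes had all exposed below all controls. Plg ranged from 37465 to 60674 in controls and from 31621 to 41806 in the exposed (-0.39 ± 0.17, limma adjusted p = 0.34, unadjusted 0.0478).

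limma called 0.0% of 14059 genes at PND1, with 14.5% at an unadjusted p below 0.05, and voom called 0. Fga, F9 and Plg were the 3 of 10 genes lower at an unadjusted p below 0.05, where 8.36% of all genes were. Fgg (-0.39), Fgb (-0.32), F2 (-0.18), F5 (-0.17), Serpinc1 (-0.12) and F10 (-0.07) had lower means and Proc a higher one (0.11). Control replicate 4 was the highest of the 4 controls for all 10 genes. Without that library the difference in the share of reads from the 10 genes went from -0.26 to -0.10 percentage points. The authors' deposited table for PND1 also gave 9 of the 10 lower and none past the threshold, with a lowest adjusted p of 0.246.

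At PND21 all 10 genes had lower means in the exposed females and none passed the threshold. F9 was at 3697, 5616 and 5533 in controls and at 2634, 3799 and 3287 in the exposed (-0.60 ± 0.24, limma adjusted p = 0.492, unadjusted 0.0338), with 1 exposed female above the lowest control. Fgb was at 65716, 139312 and 110889 in controls and 43484, 72485 and 93563 in the exposed (-0.59 ± 0.39, limma adjusted p = 0.615). Plg was at 41743, 71989 and 60200 in controls and 33913, 42922 and 48156 in the exposed (-0.46 ± 0.30, limma adjusted p = 0.611). Fgg and F2, at -0.25 and -0.17, changed sign without control replicate 2 or exposed replicate 1. Control replicate 1 and exposed replicate 1 were the lowest of their groups for F9, Fgb and Plg, and the groups overlapped for all 10 genes, where 16.6% of all genes had groups apart in either direction.

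limma called 5 of 13886 genes at PND21 (0.036%), and 1329 (9.57%) at an unadjusted p below 0.05, F9 alone among the 10. voom called 2 genes in all and 0 of the 10. All 3 exposed libraries (24.8 M to 28.3 M reads) were deeper than the 3 controls (22.0 M to 24.6 M). With read totals as the scale the all-gene median went from -0.01 to 0.23, and Fga (0.01), F2 (0.07), F10 (0.08) and Proc (0.02) changed sign, while F9 (-0.36), Fgb (-0.36) and Plg (-0.22) stayed below 0. The authors' deposited table for PND21 gave 10 of 10 lower with a lowest adjusted p of 0.118. The exposure effect at PND21 minus that at PND1, fitted over 14 libraries, was not past the threshold for any of the 10 genes in limma (0.014% of all genes were), nor in voom, and none had an unadjusted p below 0.05, as 9.07% of all genes had.

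Control females at PND1 and PND21, which were scaled together, showed how the genes differ between birth and weaning. The same controls also enter the exposure comparisons at those ages, so the results are not independent of each other. F9 rose the most. It was at 1203, 1026, 1106 and 1747 at PND1 and at 3697, 5616 and 5533 at PND21, a log2 fold change of 1.97 ± 0.22 (limma adjusted p = 5.12e-05). Serpinc1 rose from 34534 ± 4074 (SD, n = 4) to 63834 ± 14690 (SD, n = 3), by 0.87 ± 0.23 (limma adjusted p = 0.0093). Proc rose from 14197 ± 1210 to 25945 ± 4449 (0.86 ± 0.19, limma adjusted p = 0.00357) and F5 from 5109 ± 640 to 9135 ± 2370 (0.81 ± 0.21, limma adjusted p = 0.00832). In these 4 genes every weanling lay above every newborn, as did 27.4% of all genes, and 4 of 10 called, all higher, compares with 52.9% of all 14233 genes called in either direction and 26.0% of all genes called higher.

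The fibrinogen chains did not pass with age: Fga was at -0.51 ± 0.30 (limma adjusted p = 0.173), Fgg at -0.34 ± 0.32 (0.398) and Fgb at 0.45 ± 0.31 (0.249), the last reaching 0.044 without PND21 control 1. F2, F10 and Plg were at 0.23, 0.23 and 0.24 and did not pass. The 2 ages differ in what fills the library. All 7 erythroid markers in the table fell (median log2 -5.62, summed level 213647 to 348326 at PND1 and 26020 to 80368 at PND21), and so did all 8 markers of megakaryocytes and platelets (median -4.47), while 7 of 9 hepatocyte markers rose. With read totals as the scale the all-gene median went from 0.01 to -0.50. F9 then still rose (1.45, limma adjusted p = 0.0003), F5 (0.30), Proc (0.34) and Serpinc1 (0.35) no longer passed, Fga (-1.02, 0.0102) and Fgg (-0.86, 0.0387) fell, and Fgb, F2, F10 and Plg changed sign. Age and erythroid level cannot be told apart here: with the erythroid mean as a covariate 1 gene of 14233 passed, and none of the 10.

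The balance between the fibrinogen chains was examined as a ratio of reads within each library, which no scaling affects; these ratios were chosen after the values had been seen. They depend on transcript length, so only differences between libraries are read from them. Fgb over Fga was 1.05 to 1.28 in PND1 controls and 2.23 to 2.42 in PND21 controls, a log2 difference of 0.96 (two-sided exact permutation p = 0.0286, adjusted 0.128). At PND21 it was 1.59 to 1.96 in the exposed, below all 3 controls (log2 difference -0.36, exact permutation p = 0.1, adjusted 0.313, where 3 against 3 can go no lower than 0.1). At PND1 it was 1.27 to 1.39 in the exposed, and a single exposed female fell within the control range (0.17, exact permutation p = 0.0571, adjusted 0.243).

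At PND42 Fgb over Fga was 1.09 to 2.14 in control females and 1.40 to 2.28 in exposed females, with overlap. It was 2.28 to 3.44 in control males, all above the control females, and 1.90 to 4.5 in exposed males. Fgg over Fga was 0.85 to 1.29 in control and 0.68 to 1.04 in exposed PND42 females (log2 difference -0.38, exact permutation p = 0.114), and 1.44 to 1.57 in control males. Over all groups, exposed and control overlapped for Fgg over Fga.

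**Figure D3:**
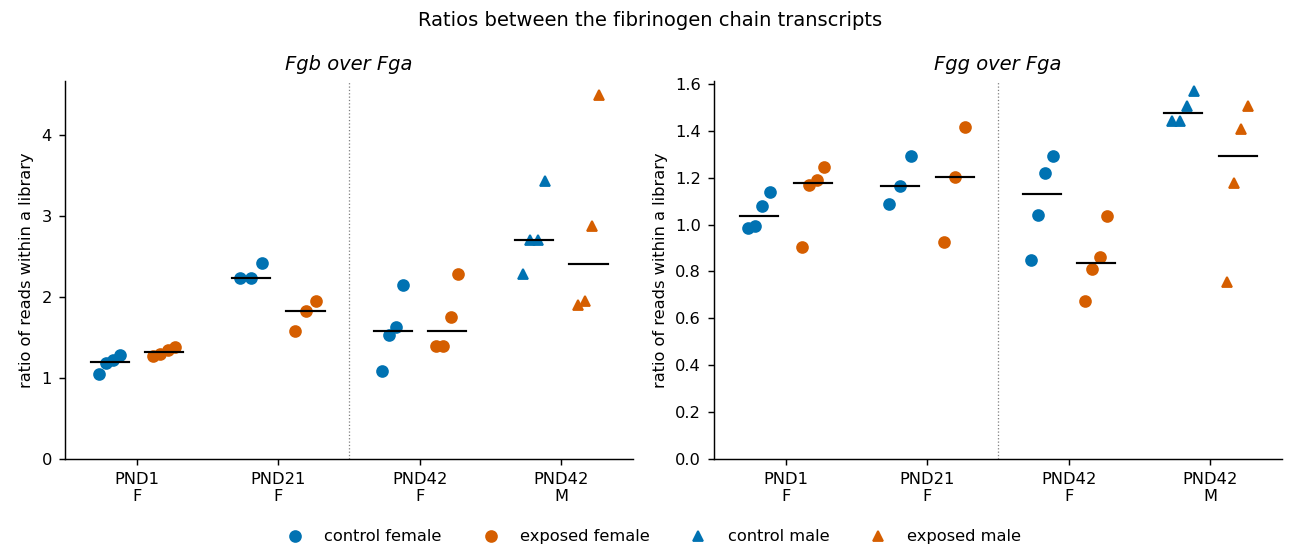
Ratio of Fgb to Fga reads and of Fgg to Fga reads in each library (control blue, exposed orange, circles female, triangles male), with a bar at each group median. Fgb over Fga lies between 1.05 and 1.39 in all 8 PND1 libraries and between 1.59 and 2.42 in all 6 PND21 libraries.

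The other genes of the pathway were followed through lists, and in PND1 females, PND21 females and PND42 males no gene of any list passed the threshold in limma (voom called 0 genes of the whole table in PND1 females and PND42 males). In PND42 females the other clotting factors and cofactors moved in both directions: of 12 measured, 4 fell and 2 rose (median log2 -0.21). Lman1 (-1.10, limma adjusted p = 0.00059) and Mcfd2 (-1.13, 0.00126), which together carry factors V and VIII out of the endoplasmic reticulum, fell, as did F13b (-1.37, 0.00118), a subunit of the factor that crosslinks fibrin, and F12 (-0.57, 0.0139). Klkb1, plasma prekallikrein, rose (0.94, 0.00672), and so did F8 (0.81, 0.00908). F7, which starts clotting with tissue factor, was at -0.19 (0.375).

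Of 5 measured genes listed under the vitamin K cycle 1 rose, Fdxr (1.25, limma adjusted p = 6.93e-05). It encodes a mitochondrial ferredoxin reductase known from steroid and iron-sulphur metabolism and not as an enzyme of that cycle. The carboxylase Ggcx was at 0.12 (0.636), and none of the other 4 genes passed. Among 10 genes listed as other natural anticoagulants 5 fell and none rose (median -0.80). These were heparin cofactor II (Serpind1, -1.42), C1 inhibitor (Serping1, -1.32), the protein Z inhibitor (Serpina10, -1.10), C4bp (-1.06) and protein S (Pros1, -0.55). Among 7 genes of fibrinolysis 4 fell and 1 rose (median -0.63). Cpb2, whose product protects fibrin from plasmin, fell by 1.69 (limma adjusted p = 7.84e-05) and Serpinf2, the plasmin inhibitor, by 0.63 (0.0118), while the plasminogen receptor Plgrkt rose by 1.17 (0.000948).

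Among 17 genes of interleukin-6 signalling and the acute phase, 5 fell and none rose (median -0.90). Crp fell by 1.56 on the log2 scale (limma adjusted p = 0.000105), Apcs by 1.79 (0.000828), Itih4 by 1.29 (0.000754) and Hpx by 1.45 (0.00286). The signalling genes Stat3 (0.47, 0.143) and Socs3 (0.50, 0.242) did not pass. Of 17 complement genes 7 fell and 2 rose (median 0.04), with Mbl2 at -2.05 and C1s1 at 1.05. Of 11 hepatocyte transcription factors 3 fell and 1 rose (median -0.28): Cebpa fell from 8232 ± 968 to 2714 ± 300 normalised counts (SD, n = 4 each; -1.60, limma adjusted p = 2.02e-05), Onecut1 (-2.15, 0.00224) and Hnf4a (-0.90, 0.0139) fell, and Nr5a2 rose (0.78, 0.00276). Over all 13091 genes 21.4% were called lower and 18.9% higher. These lists were drawn up with results of these data known. F7, F8, F12, Serpina10, Stat3, Socs3 and C1s1 here, and Thbd in the comparison by age, were picked out after their values had been seen.

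**Figure D4:**
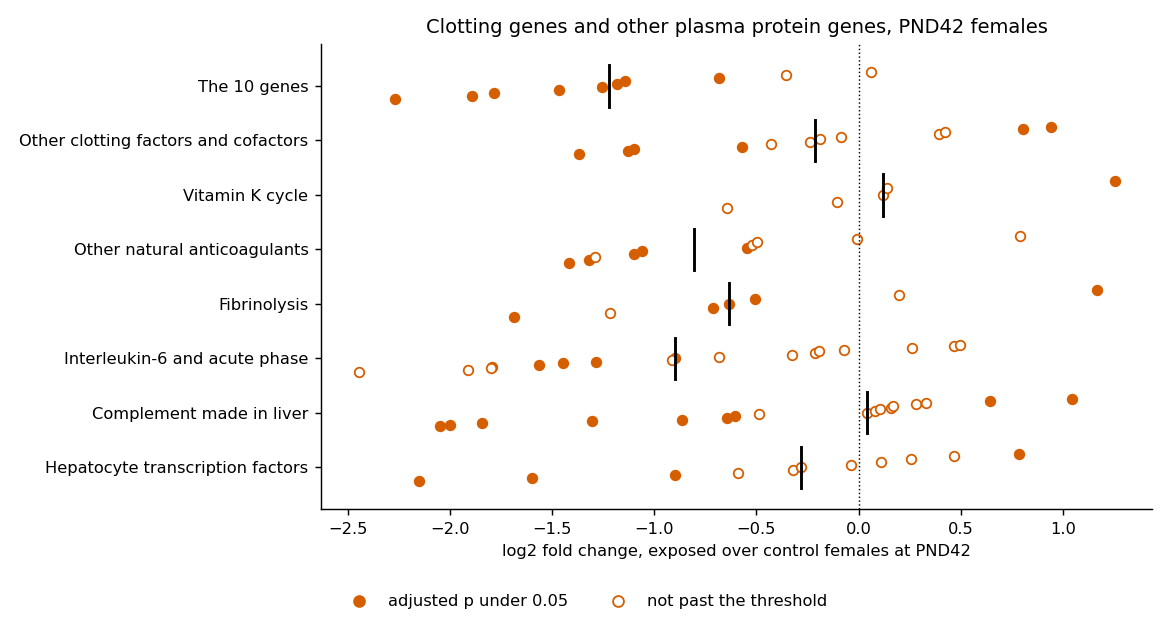
Log2 fold change of exposed over control PND42 females for the 10 genes and 7 lists of related genes, filled where the limma adjusted p was below 0.05, with a bar at each list's median. The medians run from -1.22 for the 10 genes to 0.12 for the vitamin K cycle.

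With age in controls, 14 of 17 complement genes, 8 of 11 hepatocyte transcription factors and 6 of 10 genes listed as other anticoagulants rose. Of that last list 1 gene fell, Thbd, which encodes thrombomodulin (limma adjusted p = 0.0164). C4bp rose by 4.28 (1.59e-06) and Pros1 by 1.19 (0.000122). Ggcx rose by 0.89 (0.00331). Of 13 other clotting factors and cofactors 3 rose and 5 fell. F13a1 fell by 4.63 and Vwf by 2.30 (both 3.2e-06), and both are known from platelets or endothelium more than from hepatocytes. Of 17 acute phase genes 7 rose, such as Orm1 (7.57) and Saa1 (6.76), and 1 fell. With 26.0% of all genes called higher, these are counts beside the same erythroid and platelet change as above.

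The mean log2 level of the 3 fibrinogen chains was compared with every other gene by Pearson correlation across libraries, as a description: the libraries share groups and scaling. Over the 14 libraries of PND1 and PND21, Erlin2 (0.934), Dtd2 (0.92), Pzp (0.92), Serpina1e (0.914) and Myl12a (0.908) were most alike. Over the 16 libraries of PND42 they were Slc16a1 (0.959), Spryd4 (0.954), Prps1 (0.941), Cpb2 (0.934) and Plrg1 (0.933), with no gene in both sets of 5. At PND42 the other members followed in the order Plg (0.918), F9 (0.88), F2 (0.872), Serpinc1 (0.86), F10 (0.765), F5 (0.54) and Proc (0.205), and at the younger ages Plg (0.818) and F2 (0.791) were nearest and F9 (0.158) and Proc (0.163) farthest.

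Plrg1, which encodes a spliceosome protein, is the gene next to Fgb, 5.7 kb away on chromosome 3 (83055522 to 83072355). It was at 605 to 803 normalised counts in control and 271 to 395 in exposed PND42 females, and fell by 1.10 ± 0.20 on the log2 scale (limma adjusted p = 0.000488). In males it was at -0.26 ± 0.20 (0.661), and its sex by exposure value of -0.85 ± 0.29 did not pass (0.0777).

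**Figure D5:**
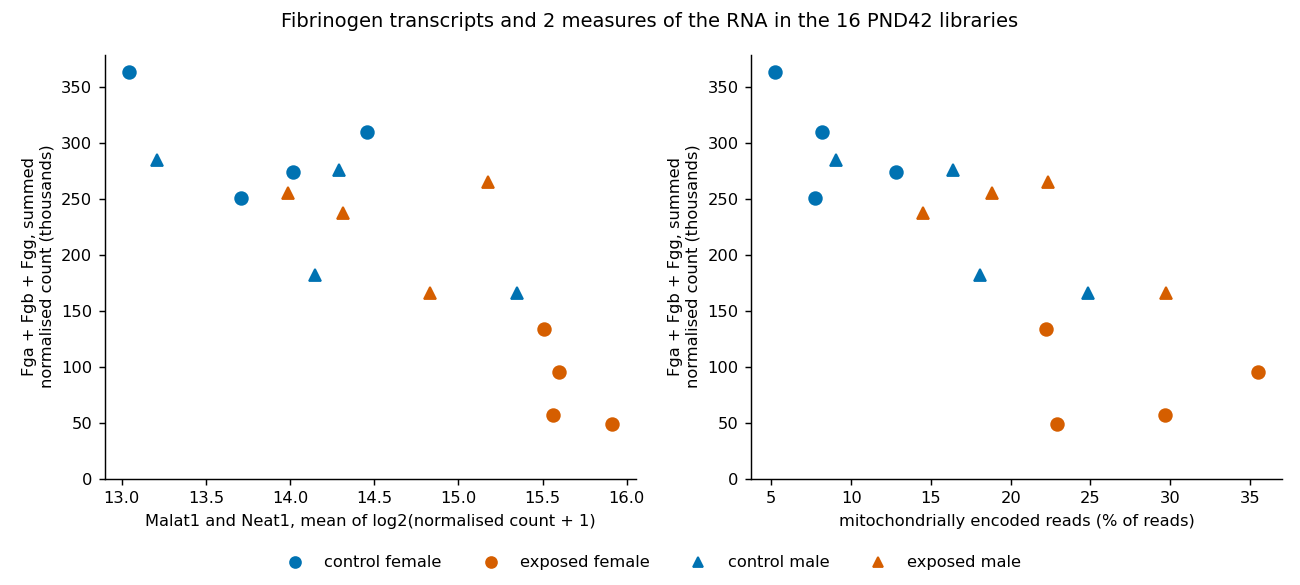
Summed normalised count of Fga, Fgb and Fgg (in units of 1000) in the 16 PND42 libraries against the mean log2 level of Malat1 and Neat1 and against the share of mitochondrially encoded reads (control blue, exposed orange, circles female, triangles male). Exposed females hold the 4 lowest sums (48508 to 134128) and the 4 highest Malat1 and Neat1 levels (15.5 to 15.9), while among males neither measure separates exposed from control. Mitochondrial shares of exposed females (22.2% to 35.5%) overlap those of control males (up to 24.8%) and exposed males (up to 29.7%).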

How the data were processed

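Liver RNA was read as single-end 125 bp reads, per the labels' protocols. FastQC, STAR and featureCounts are the tools and mm10 the build named for quality, alignment and gene counts, per the submitters' processing notes, with versions and strand settings not given in the sources used here. Values were deposited by the authors as log2, which the values themselves show to be read counts divided by a library size factor, plus 1. The deposited signal column (baseMean) is the mean normalised count over 14 libraries for PND1 and PND21 and over 16 for PND42, so the authors scaled these sets apart. The deposited p-value columns of the PND1 and PND21 tables came from the authors' own test and were used only where the authors' table is named.

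limma 3.58.1 (R 4.3.3, intensity trend, robust empirical Bayes) was fitted to the log2 values of all genes with at least 10 normalised counts in as many libraries as the smallest group holds, with a threshold of 0.05 on the Benjamini-Hochberg adjusted p, two-sided. Count models had been planned, and were set aside since the deposited unit is log2. voom was run on the whole reads behind these values. The lower values, the only ones checked, came back within 0.1 of a whole number. Most values of the 10 genes are higher than those. PND42 comparisons shared 1 fit of 4 groups, and the 14 younger libraries shared 1 fit for the difference between ages in the exposure effect only. No column was left unused. For sums, shares and ratios an exact permutation test, two-sided, was used. The scripts were tested on simulated data.

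Named were the 10 genes in each comparison, up to 4 genes of lowest p from each list, and the 5 genes most alike to the fibrinogen chains. The members and lists were chosen with earlier results of these data known. Alternatives were scaling by total reads or by a trimmed mean of M values, another pseudocount, no filter, voom, no trend or robust step, covariates, a replicate block, and leaving out each library. Gene positions are from GENCODE vM21 and promoter windows from RefSeq, both on GRCm38. Libraries held 22.0 M to 40.1 M reads, and no member's level is near the filter.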

Additional observations from a re-analysis of the deposited data

Results flagged for a closer look

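In control females at PND1, replicate 4 lay apart from the other 3 in the share of reads from the 10 genes (2.05%) and in that from the fibrinogen chains (1.24%). At PND42 the unnumbered control female was apart and low for Fgb (106539 normalised counts), and exposed female 2 was apart and low for F5 (8651 normalised counts). These were 4 of 102 sets of values examined by Dixon's test, each set being 1 gene or measure in 1 group. Its 95% critical value lets chance alone give about 5% of independent sets, and these sets share libraries and genes.

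The exposure effect at PND42 differed between the sexes, as female minus male log2 fold change, for Fgg (-2.08), Fga (-2.04), Fgb (-1.87) and F9 (-1.16), by the interaction in limma. The Fga value missed the threshold in 10 of 16 fits that left out a library (adjusted p from 0.0503 to 0.0878), while Fgb, Fgg and F9 passed in all of those fits.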

How the results depend on the processing

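The lowest normalised count of any of the 10 genes in a library was 815, well above the filter on low values. The counts of the 10 genes past the threshold in PND1 females, PND21 females, PND42 males and in the difference between ages were 0 under every alternative run, and in PND42 females they were 7 to 8 in the fits that left out a library. In PND42 females the Malat1 and Neat1 covariate left 0 of the 10 (8 without it) and 232 genes in all (5269). That covariate cannot be told apart from exposure in those females. With the erythroid covariate the comparison of ages in controls kept 0 of the 10 (4) and 1 gene in all (7527), and PND21 exposure had 9 genes (5). With total reads, male against female controls gave 1 of the 10 (0) and 2110 genes in all (907), of which 235 were higher and 1875 lower in males (600 and 307), the age comparison had 1724 higher and 6585 lower (3701 and 3826), the sex by exposure result 228 and 551 (503 and 533), and the difference between ages in the exposure effect 4 genes (2). The last had 0 genes with voom and 4 with no trend or robust step, and PND21 exposure had 2 genes with either. No result changed sign past its threshold.

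Leaving out a library gave 0 to 5 genes at PND1 (5 without exposed replicate 3, 1 without exposed replicate 4), 0 to 14 at PND21 (14 without exposed replicate 3, 0 without control replicate 3 or exposed replicate 1), 4234 to 5699 in PND42 females, 0 to 27 in PND42 males (27 without control unnumbered a) and 2 to 12 in the difference between ages. Of the 10 genes it gave 4 to 5 with age, 0 to 1 in male against female controls (371 to 1979 genes in all) and 3 to 7 in the sex by exposure result (492 to 1929).

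Same-numbered control and exposed libraries correlated in their deviations from the group means at -0.09 to 0.2 at PND1, 0.03 to 0.38 at PND21 and -0.02 to 0.09 in PND42 females. The labels do not say whether the numbers pair animals, and so few correlations cannot decide it. With the replicate block 0 of the 10 genes passed at PND1, 0 at PND21 (8 genes in all, against 5) and 8 in PND42 females (4987 genes in all). No such block was fitted for PND42 males, whose numbered control and exposed libraries have fewer than 2 numbers in common.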
